A study of Mus musculus with 8 samples.

Results

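The genes described here were 10 members of the interferon-gamma (IFNγ) inducible programme of macrophages, chosen by symbol from the gene table of 53819 genes. They were the guanylate-binding proteins *Gbp2*, *Gbp3*, *Gbp5*, *Gbp7* and *Gbp9*, the immunity-related GTPases *Igtp*, *Irgm1*, *Irgm2* and *Iigp1*, and the transcription factor *Irf1*. RNA was sequenced from bone marrow-derived macrophages (BMDM) of 4 female BALB/cJ mice aged 8 weeks. Marrow cells of each mouse were differentiated for 5 days with M-CSF at 25 ng/mL, and cultures of the same mouse then received vehicle (DMSO, no bilirubin) or 2.5 µM bilirubin, the end product of heme breakdown, for 48 h. This gave 4 vehicle and 4 bilirubin libraries, paired by mouse, and the labels name no IFNγ treatment in either group. The comparison asks how bilirubin changes the macrophage transcriptome, here for the IFNγ-inducible GTPases.

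Guanylate-binding proteins (GBPs) and immunity-related GTPases (IRGs) are large GTPases that macrophages make after exposure to interferon. They assemble on the vacuoles of intracellular bacteria and parasites, and several GBPs also promote activation of the noncanonical inflammasome. IFNγ signals through its receptor and the kinases Jak1 and Jak2, and many of its target promoters hold a gamma-activated site (GAS). IFNγ also induces Irf1, which binds interferon-stimulated response elements (ISRE), and type I interferons act on ISRE with Irf9 as a component.

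The promoters of the members are shown because these elements link them to the pathway. RefSeq promoters (250 bases before to 50 after each annotated start, from the table built on GRCm38.p6) were matched for 8 of the 10 members, with 10 promoters in all, and *Gbp9* and *Iigp1* had none in the table. Each was searched on both strands for GAS (TTCNNNGAA), the ISRE core (GAAANNGAAA) and the NF-kB consensus. The ISRE core was present in 7 of the 10 promoters, from 7 of the 8 members, against 3.44% of the 32851 promoters in the table. GAS was present in 5 of the 10, from 5 members, against 8.3% of all promoters. The NF-kB consensus was present in 2 of the 10, from 2 members, against 4.51%. Stretches of 30 bases that hold matches before the start are given on the strand of the gene, 5′ to 3′, with the matches in capitals, and their positions are those of an exact match to GRCm39.
Gbp2 ISRE core (chr3:142326355-142326384, + strand): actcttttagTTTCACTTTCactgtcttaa
Gbp3 ISRE core, 2 overlapping matches (chr3:142265753-142265782, + strand): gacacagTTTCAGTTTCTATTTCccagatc
Gbp5 ISRE core (chr3:142202520-142202549, + strand): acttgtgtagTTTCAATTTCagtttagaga
Gbp5 NF-kB (chr3:142202608-142202637, + strand): ggagaggaaaGGAAATTCCCagggctggcc
Gbp5 GAS (chr3:142202633-142202662, + strand): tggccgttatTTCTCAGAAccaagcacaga
Gbp7 GAS, 2 matches (chr3:142235990-142236019, + strand): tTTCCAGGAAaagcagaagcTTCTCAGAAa
Gbp7 ISRE core (chr3:142236034-142236063, + strand): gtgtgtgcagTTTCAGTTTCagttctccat
Irgm1 ISRE core, 2 overlapping matches (chr11:48762255-48762284, - strand): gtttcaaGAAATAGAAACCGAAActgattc
Igtp GAS and ISRE core (chr11:58090333-58090362, + strand): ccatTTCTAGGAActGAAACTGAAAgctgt
Irgm2 GAS and ISRE core (chr11:58105724-58105753, + strand): ccatTTCCAGGAActGAAACTGAAAgctgt
Irf1 GAS (chr11:53660741-53660770, + strand): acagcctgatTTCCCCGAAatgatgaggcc
Irf1 NF-kB (chr11:53660811-53660840, + strand): gtggccgagtccgggccGGGGAATCCCgct

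The starts used for these promoters are those of RefSeq. The Ensembl transcript with the most counts started 75 bases upstream of the RefSeq start for *Gbp2*, 161 for *Gbp5*, 53 for *Gbp7*, 263 for *Igtp* and 15359 for *Irgm2*, at the same base for *Irgm1* and *Irf1*, and 308 bases downstream for the *Gbp3* promoter shown. A second *Gbp3* promoter and a second *Irf1* promoter in the table held none of these letters. That second *Gbp3* promoter had its RefSeq start 4 bases downstream of the start of the *Gbp3* transcript with the most counts. Relative to the start of the transcript with the most counts, the matches shown for *Gbp2*, *Igtp* and *Irgm2* lay downstream. So did the NF-kB and GAS matches shown for *Gbp5*, while the ISRE cores of *Gbp5* and *Gbp7* lay across or at that start.

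Bilirubin raised 4 of the 10 members and lowered 0 of them. *Gbp2*, *Gbp3*, *Gbp5* and *Gbp7* rose between 1.56-fold and 2.71-fold, and each was higher after bilirubin in 4 of 4 mice. The IRGs *Igtp*, *Irgm1*, *Irgm2* and *Iigp1*, the GBP *Gbp9* and the transcription factor *Irf1* did not pass the threshold, an adjusted p under 0.05 (edgeR's quasi-likelihood test on a paired model, Benjamini-Hochberg adjusted over the 13722 genes tested). Over all genes tested, 4.49% rose and 3.04% fell. At an unadjusted p under 0.05, 7 members were higher and 0 lower, against 10.8% higher and 10% lower of all genes tested, and DESeq2 and limma voom each called 4 higher and 0 lower. All bilirubin libraries were above all vehicle libraries in the same 4 members and in 5.93% of all genes tested. The median log2 fold change was 0.33 over the 10 members and -0.00 over all genes tested, and all 10 members had fitted log2 fold changes above 0. The median of the members was 0.17 without mouse 1 and 0.58 without mouse 2. In bulk RNA, a change in the number of expressing cells cannot be told apart from a change in RNA per cell.

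The 4 members that rose are neighbours. In the GENCODE annotation of GRCm39 they lie on the + strand of chromosome 3 within 144 kb, with *Gbp5* at chr3:142199739-142228105, *Gbp7* at chr3:142236044-142255910, *Gbp3* at chr3:142265731-142278979 and *Gbp2* at chr3:142326349-142343779. *Gbp2b*, a guanylate-binding protein outside the chosen genes, lies between *Gbp3* and *Gbp2*. *Gbp9* lies on chromosome 5 (chr5:105224332-105287452, - strand), *Iigp1* on chromosome 18, and the remaining members on chromosome 11. Those are *Irgm1* (chr11:48752795-48763164, - strand), *Irf1* (chr11:53660812-53669200, + strand), *Igtp* (chr11:58089840-58098417, + strand) and *Irgm2* (chr11:58090444-58113615, + strand), of which the last 2 overlap. Whether the chromosome 3 genes differed from the others in their response was not tested.

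**Figure D1:**
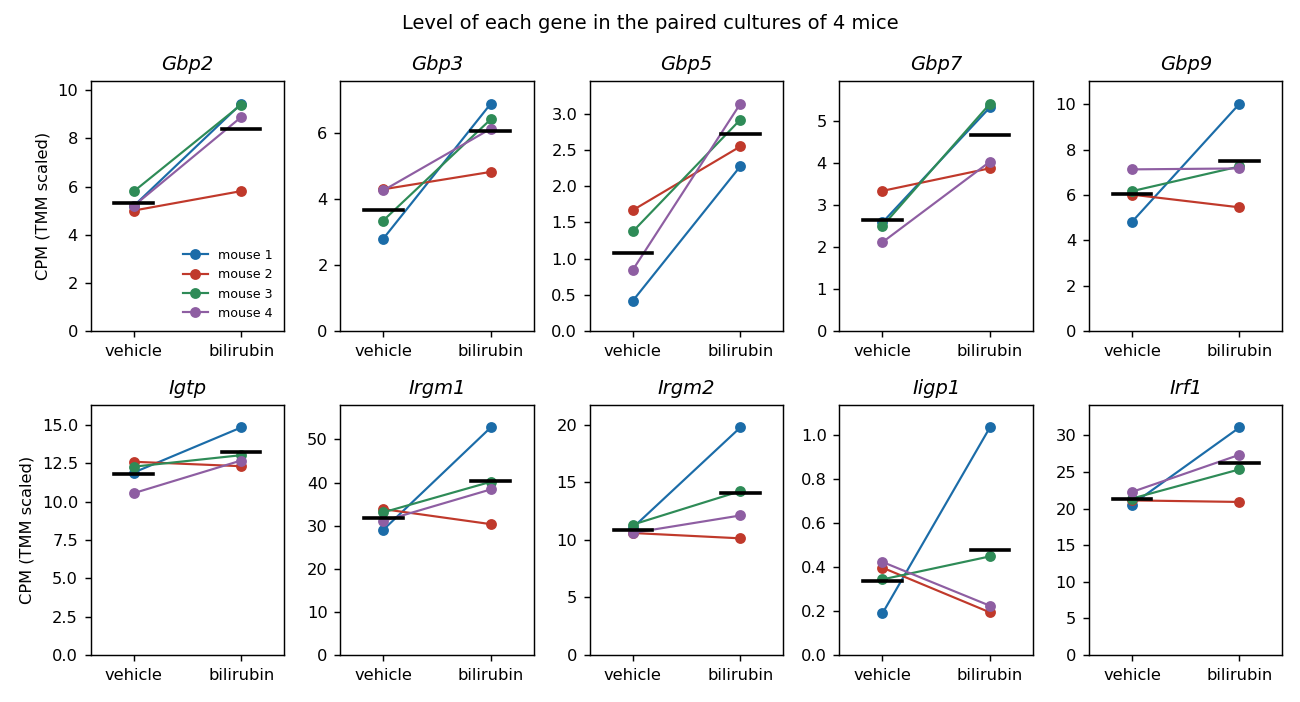
Level of each of the 10 members in CPM (TMM scaled, linear axes from 0) in the vehicle and bilirubin cultures. Lines join the cultures of a mouse and black bars are group means (n = 4 mice per group). In *Gbp2*, *Gbp3*, *Gbp5* and *Gbp7* all bilirubin points lie above all vehicle points, and in the other 6 genes the groups overlap.

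*Gbp5*, which promotes inflammasome assembly, had the largest fold change of the members. Its level in CPM, the counts scaled by library size with TMM factors, without bilirubin was 0.421, 1.67, 1.38 and 0.847 for mice 1 to 4, and after bilirubin it was 2.27, 2.55, 2.92 and 3.14. The groups did not overlap, and the vehicle culture of mouse 1 was the lowest of all. Means were 1.08 ± 0.555 and 2.72 ± 0.383 CPM (SD, n = 4), and the log2 fold change was 1.44 (standard error, SE, 0.30, edgeR adjusted p = 0.0233). It was also a thinly counted gene, with 20 to 126 counts per library.

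*Gbp7*, a guanylate-binding protein linked to oxidative host defence, was at 2.59, 3.34, 2.50 and 2.12 CPM with vehicle and at 5.32, 3.88, 5.41 and 4.03 CPM with bilirubin in mice 1 to 4. All bilirubin cultures were above all vehicle cultures, with mouse 2 having the highest vehicle and the lowest bilirubin level. The log2 fold change was 0.83 (SE 0.18, edgeR adjusted p = 0.0264). Most of its counts were assigned by Salmon to the longer of 2 transcripts, whose share ranged from 49.8% to 85.3% over the libraries. With an offset for effective transcript length in the fit, the log2 fold change was 0.57 (edgeR adjusted p = 0.201).

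*Gbp3* was at 2.80, 4.29, 3.35 and 4.26 CPM with vehicle and at 6.88, 4.82, 6.41 and 6.12 CPM with bilirubin. The groups did not overlap, although the bilirubin culture of mouse 2 stood only slightly above the vehicle cultures of mice 2 and 4. Its log2 fold change of 0.73 (SE 0.18) had an edgeR adjusted p of 0.0493, next to the threshold. Salmon placed between 6.25% and 100% of the *Gbp3* counts of a library on its leading transcript of 2682 bases, and up to 89.4% on another of 2629 bases, so its isoforms were not compared.

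*Gbp2*, which restricts Toxoplasma and bacteria in mouse macrophages, had the smallest fold change of the 4 and the smallest standard error. It was at 5.20, 5.01, 5.80 and 5.20 CPM with vehicle and at 9.44, 5.81, 9.40 and 8.88 CPM with bilirubin. The vehicle cultures were close together, and 3 of the 4 bilirubin cultures were well above them, while that of mouse 2 lay just above the highest vehicle culture. The log2 fold change was 0.65 (SE 0.12, edgeR adjusted p = 0.0155).

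*Gbp9* did not pass the threshold. It was at 4.82, 6.01, 6.17 and 7.12 CPM with vehicle and at 10.01, 5.45, 7.25 and 7.17 CPM with bilirubin. Only the culture of mouse 1 was well above the vehicle range, and that of mouse 2 was below its own vehicle culture. The log2 fold change was 0.29 with a 95% interval of -0.13 to 0.71 (edgeR adjusted p = 0.433), and it was 0.04 without mouse 1.

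**Figure D2:**
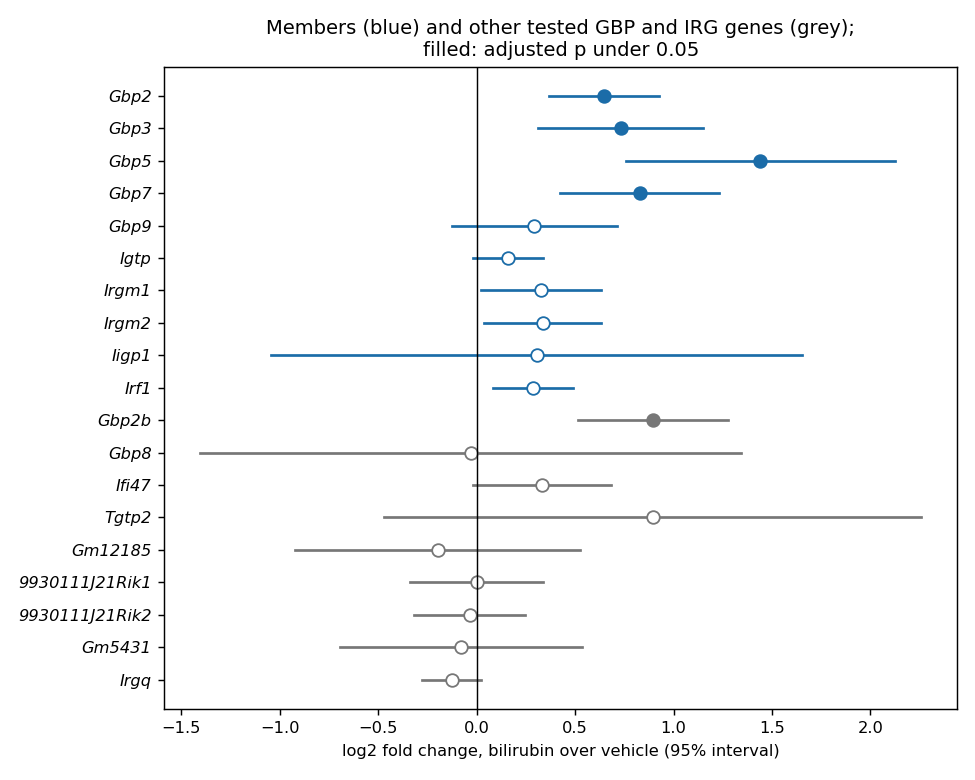
Log2 fold change of bilirubin over vehicle with its 95% interval for the 10 members (blue) and for 9 other tested GBP and IRG genes (grey), from the edgeR fit. Filled points have an adjusted p under 0.05: *Gbp2*, *Gbp3*, *Gbp5*, *Gbp7* and *Gbp2b*.

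Among the IRGs, *Irgm1*, *Irgm2* and *Igtp* (also called Irgm3) are the regulatory members that keep effector GTPases off the cell's own membranes. *Irgm1* was at 29.0, 33.8, 33.1 and 31.1 CPM with vehicle and at 52.8, 30.3, 40.2 and 38.4 CPM with bilirubin. It was highest in the bilirubin culture of mouse 1, and mouse 2 was lower with bilirubin than with vehicle. The log2 fold change was 0.33 (95% interval 0.02 to 0.63), with an edgeR adjusted p of 0.206.

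*Irgm2* was at 11.1, 10.6, 11.3 and 10.6 CPM with vehicle and at 19.8, 10.1, 14.2 and 12.1 CPM with bilirubin. The vehicle cultures were nearly level while the bilirubin cultures ranged widely, with that of mouse 2 below all vehicle cultures. Its log2 fold change was 0.33 (95% interval 0.04 to 0.63, edgeR adjusted p = 0.188).

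*Igtp* was at 11.9, 12.6, 12.3 and 10.6 CPM with vehicle and at 14.8, 12.3, 13.04 and 12.7 CPM with bilirubin. The groups overlapped, and the interval of its log2 fold change of 0.16 ran from -0.02 to 0.34 (edgeR adjusted p = 0.299). *Igtp* and *Irgm2* overlap on the same strand, and their estimated counts were whole numbers in 0 of 8 libraries each but summed to a whole number in 8 of 8 (within 0.01), so reads were divided between them. Summed to 1 feature, a check chosen after seeing the data, they had a log2 fold change of 0.25 (SE 0.09) and an edgeR adjusted p of 0.168.

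*Iigp1*, the effector IRG that coats parasite vacuoles, was close to the limit of detection. It had 7 to 36 counts per library, at 0.189, 0.397, 0.344 and 0.423 CPM with vehicle and 1.04, 0.194, 0.449 and 0.224 CPM with bilirubin. Only the bilirubin culture of mouse 1 stood clearly above the rest, and mice 2 and 4 were lower with bilirubin. The log2 fold change was 0.31 (95% interval -1.04 to 1.66, edgeR adjusted p = 0.833) and -0.46 without mouse 1, so a change was not detected. Counts were few and mice differed in direction, and the part of each in the wide interval was not tested.

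*Irf1*, the transcription factor that acts on ISRE of these genes, was at 20.5, 21.1, 21.4 and 22.3 CPM with vehicle and at 31.1, 20.9, 25.4 and 27.3 CPM with bilirubin. The vehicle cultures lay within a narrow band, and 3 of the 4 bilirubin cultures were above it, with mouse 2 inside it. The log2 fold change was 0.29 (95% interval 0.08 to 0.49). The edgeR adjusted p was 0.106, between 0.0574 and 0.317 when each mouse was left out in turn.

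Per transcript length, the levels of the members spanned a wide range. In vehicle cultures, mean TPM, in which counts are divided by transcript length and scaled to the library, was 24.8 ± 1.41 for *Irgm1*, 21.1 ± 2.46 for *Irf1*, 10.01 ± 0.763 for *Igtp* and 5.12 ± 0.171 for *Irgm2* (SD, n = 4). *Gbp2* followed at 3.72 ± 0.284 TPM, then *Gbp9* at 2.67 ± 0.512, *Gbp3* at 2.57 ± 0.884, *Gbp7* at 1.11 ± 0.250, *Gbp5* at 0.649 ± 0.335 and *Iigp1* at 0.214 ± 0.0561. In that order the ranges over vehicle libraries overlapped between *Irgm1* and *Irf1*, among *Gbp2*, *Gbp9* and *Gbp3*, between *Gbp7* and *Gbp5*, and between *Gbp5* and *Iigp1*. With bilirubin, *Gbp2* was at 5.56 ± 1.41 TPM, *Gbp3* at 3.88 ± 0.343, *Gbp7* at 1.59 ± 0.344 and *Gbp5* at 1.54 ± 0.238, so the 4 members that rose stayed below the vehicle level of *Igtp*.

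**Figure D3:**
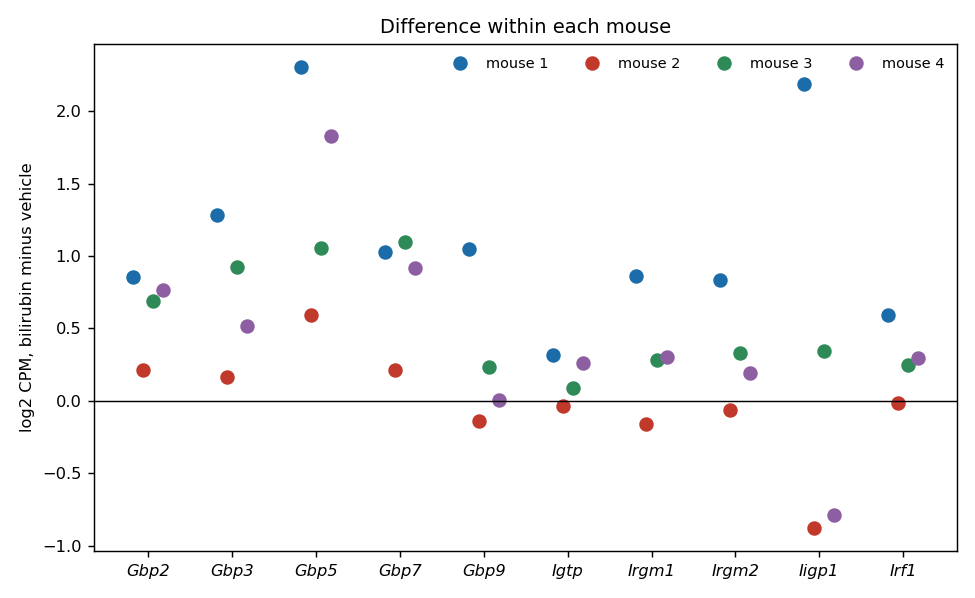
Difference in log2 CPM (prior count of 2) between the bilirubin and the vehicle culture of each mouse for the 10 members, with 0 as a line. All 10 points of mouse 1 are above 0, and those of mouse 2 are the lowest in every member.

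The members varied together by mouse. The log2 CPM difference between the bilirubin and the vehicle culture was above 0 for 10 of 10 members in mouse 1, for 4 of 10 in mouse 2, for 10 of 10 in mouse 3 and for 9 of 10 in mouse 4. The median difference over the members was 0.94, -0.02, 0.33 and 0.30 for mice 1 to 4, against medians from -0.00 to 0.00 over all genes tested. The 4 members above 0 in mouse 2 were those that rose, at 0.21 for *Gbp2*, 0.16 for *Gbp3*, 0.60 for *Gbp5* and 0.21 for *Gbp7*. Mouse 1 had 2.30 for *Gbp5*, 2.18 for *Iigp1*, 1.28 for *Gbp3* and 1.05 for *Gbp9*, and 0.32 for *Igtp*. Over the 8 libraries, the 45 pairs of members had Pearson correlations of log2 CPM from 0.24 (*Gbp5* with *Iigp1*) to 0.95 (*Irgm1* with *Irgm2*), with a median of 0.79. These libraries share mice and treatments, and the value is a description.

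Without mouse 1, the log2 fold change was also lower for *Irgm1* (0.15), *Irgm2* (0.16), *Irf1* (0.18) and *Igtp* (0.10). Without mouse 3 and without mouse 4, 0 of the 10 members passed the edgeR test, with adjusted p for the 4 risers from 0.107 to 0.259 and from 0.109 to 0.143. At an unadjusted p under 0.05, 5 members were higher and 0 lower without mouse 3, and 6 higher and 0 lower without mouse 4, the 4 risers among them in both. The log2 fold changes without mouse 3 and without mouse 4 were 0.62 and 0.60 for *Gbp2*, 0.66 and 0.80 for *Gbp3*, 1.58 and 1.30 for *Gbp5* and 0.73 and 0.79 for *Gbp7*, and the number of genes called over the whole table was 377 and 441 against 1033. By contrast, the 4 were called without mouse 1 and without mouse 2. With an offset for effective transcript length, *Gbp5* was the only member to pass (edgeR adjusted p = 0.0442). The log2 fold changes with this offset were 0.59 for *Gbp2*, 0.69 for *Gbp3*, 1.43 for *Gbp5* and 0.57 for *Gbp7*. They were 0.10 for *Gbp9*, 0.11 for *Iigp1*, 0.14 for *Irf1*, 0.15 for *Igtp*, 0.32 for *Irgm1* and 0.33 for *Irgm2*. With no expression filter *Irgm1*, *Irgm2* and *Irf1* passed as well as the 4.

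**Figure D4:**
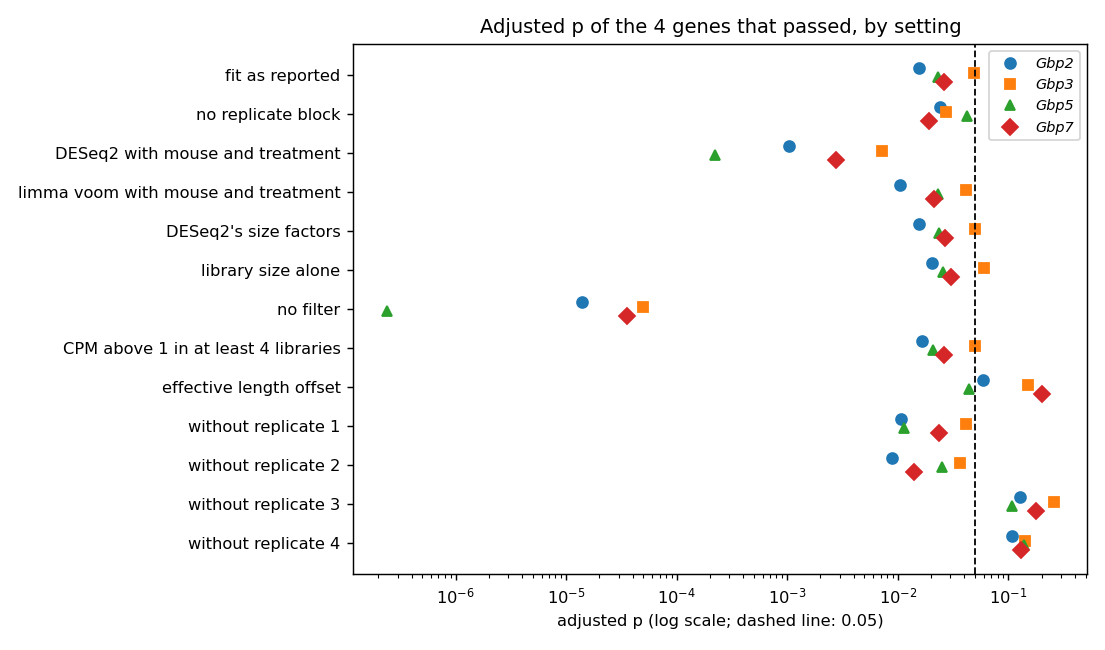
Adjusted p of *Gbp2*, *Gbp3*, *Gbp5* and *Gbp7* (log axis) under the fit as reported and each alternative, with the threshold of 0.05 as a dashed line. Without replicate 3 or without replicate 4 (mice 3 and 4), all 4 genes are right of the line.

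Of the 6 other GBPs, 2 were tested. *Gbp2b* was at 2.63, 3.74, 3.37 and 3.41 CPM with vehicle and at 6.68, 5.09, 7.43 and 5.35 CPM with bilirubin. Its groups did not overlap, and it rose with a log2 fold change of 0.90 (SE 0.17, edgeR adjusted p = 0.0144). The estimated counts of *Gbp2b* and *Gbp2* were whole in 6 of 8 libraries each and summed to whole numbers in 8 of 8 (within 0.01), so reads were divided between them in the remaining libraries. Their sum had a log2 fold change of 0.75 (SE 0.11, edgeR adjusted p = 0.00499). *Gbp8* on chromosome 5 averaged 0.347 ± 0.186 CPM in vehicle and 0.351 ± 0.282 CPM in bilirubin cultures (SD, n = 4, log2 fold change -0.03, edgeR adjusted p = 0.989). *Gbp4*, *Gbp6*, *Gbp10* and *Gbp11*, which are also on chromosome 5, were too thinly counted to be tested, with 61.0 counts at most in a library.

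Of 12 other IRG genes in the table, 7 were tested and 0 passed in edgeR in either direction, with 0 at an unadjusted p under 0.05 and 0 in DESeq2 or limma voom. Their median log2 fold change was -0.04. *Ifi47* was at 0.33 (SE 0.15, edgeR adjusted p = 0.266), *Tgtp2* at 0.89 (SE 0.60), *Irgq* at -0.13, *Gm12185* at -0.20, *Gm5431* at -0.08, *9930111J21Rik1* at -0.00 and *9930111J21Rik2* at -0.04. Without mouse 1, 3 of them passed with lower levels under bilirubin, *Gm5431*, *9930111J21Rik1* and *9930111J21Rik2*. Among 6 tested dynamin-like and other large GTPase relatives, 0 passed in edgeR, DESeq2 or limma voom, 2 were higher and 1 lower at an unadjusted p under 0.05 (10.8% and 10% of all genes tested), and the median log2 fold change was 0.21.

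*Ifng* had 0 counts in all 8 libraries, which allows up to 3 counts per library, or 0.0631 to 0.0863 CPM. *Ifnb1* had 5 counts over all libraries and no more than 2 in any. Of 15 genes for interferons and the cytokines that induce or cooperate with IFNγ, 8 had 0 counts in all libraries, and only *Il18* was tested, with a log2 fold change of 0.02 (edgeR adjusted p = 0.974).

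The IFNγ receptor and signalling genes were expressed in all cultures. In edgeR 3 of 13 rose and 0 fell, against 4.49% and 3.04% of all genes tested. DESeq2 and limma voom each called 3 higher and 0 lower. At an unadjusted p under 0.05, 7 were higher and 0 lower, against 10.8% and 10% of all genes tested. *Ifngr2*, the signalling chain of the receptor, rose from 93.6 ± 0.647 to 116 ± 2.80 CPM (SD, n = 4, log2 fold change 0.31, edgeR adjusted p = 0.00114). *Socs3*, an inhibitor of cytokine receptor signalling, rose with a log2 fold change of 1.35 (adjusted p = 0.00147), and the phosphatase gene *Ptpn6* with 0.21 (adjusted p = 0.0173). *Ifngr1* (0.06), *Jak1* (0.08), *Jak2* (0.10) and *Socs1* (0.36), given as log2 fold changes, did not pass.

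Within the IRF family and its binding partners, 1 of 10 tested genes rose and 2 fell, against 4.49% and 3.04% of all genes tested. DESeq2 called 1 higher and 3 lower, and limma voom 1 and 2. At an unadjusted p under 0.05, 2 were higher and 3 lower, against 10.8% and 10% of all genes tested. *Irf2bp2* rose (log2 fold change 0.22, edgeR adjusted p = 0.0415), and *Irf2bpl* and *Irf2bp1* fell by 0.34 and 0.29 on the log2 scale (adjusted p 0.00920 and 0.0253). These 3 encode cofactors that bind Irf2 or resemble its binding proteins, and not IRF factors. *Irf8*, the lineage factor of macrophages, was at -0.21 (adjusted p = 0.0674) and passed in 3 of 13 alternative fits. *Irf9*, a component of the type I interferon response complex, was at 0.09 (adjusted p = 0.740). *Irf7* had the largest log2 fold change of the list, 0.85, and did not pass (adjusted p = 0.0989).

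Of 28 tested genes of a list of other IFNγ-inducible genes, 8 rose and 1 fell, against 4.49% and 3.04% of all genes tested. Their median log2 fold change was 0.28. The median difference within mice 1 to 4 was 0.39, 0.08, 0.32 and -0.01, with 23, 17, 23 and 14 of the 28 genes above 0. *Cybb*, the catalytic subunit of the phagocyte oxidase, rose with a log2 fold change of 0.89 (edgeR adjusted p = 8.38e-05) and the adhesion gene *Icam1* with 0.77 (adjusted p = 0.000398). The antigen presentation genes *B2m* (0.33), *Tapbp* (0.33) and *Cd74* (0.76) rose with edgeR adjusted p of 0.00443, 0.00525 and 0.00581. The member that fell, named after its value was seen, was *H2-DMa* at -0.22.

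*Nos2*, which encodes inducible nitric oxide synthase, had 0, 3, 0 and 1 counts with vehicle and 9, 30, 65 and 18 counts with bilirubin in mice 1 to 4. All bilirubin cultures were above all vehicle cultures (edgeR adjusted p = 0.00445), and no fold is given against so few counts. *Cxcl9*, a chemokine that depends strongly on IFNγ, had 0 counts in all vehicle cultures and 1, 1, 7 and 10 with bilirubin and was too low to be tested. *Cxcl10* averaged 3.54 ± 1.12 CPM in vehicle and 5.53 ± 0.979 CPM in bilirubin cultures (SD, n = 4, edgeR adjusted p = 0.0566), and *Ciita*, the master regulator of MHC class II, at 0.130 ± 0.0894 and 0.452 ± 0.133 CPM (adjusted p = 0.0683).

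GBPs act upstream of inflammasomes. Of 8 genes of the canonical and noncanonical inflammasomes, 4 rose and 0 fell in edgeR, against 4.49% and 3.04% of all genes tested. DESeq2 and limma voom each called 4 higher and 0 lower. At an unadjusted p under 0.05, 5 were higher and 0 lower, against 10.8% and 10% of all genes tested. Whether these changes follow from those of the GBPs was not tested. *Il1b* rose with a log2 fold change of 2.80 (edgeR adjusted p = 0.000711), *Casp4*, the receptor of intracellular lipopolysaccharide, with 0.58 (adjusted p = 0.00108), *Nlrp3* with 0.40 (adjusted p = 0.0126) and the pore-forming *Gsdmd* with 0.26 (adjusted p = 0.0393). Of 10 autophagy conjugation genes that place GBPs and IRGs on vacuoles, 0 rose and 1 fell, *Atg12*, by 0.17 on the log2 scale (edgeR adjusted p = 0.0309). At an unadjusted p under 0.05, 1 was higher and 2 lower, near the 10.8% and 10% of all genes tested, and DESeq2 called 0 and limma voom 1 of the 10.

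**Figure D5:**
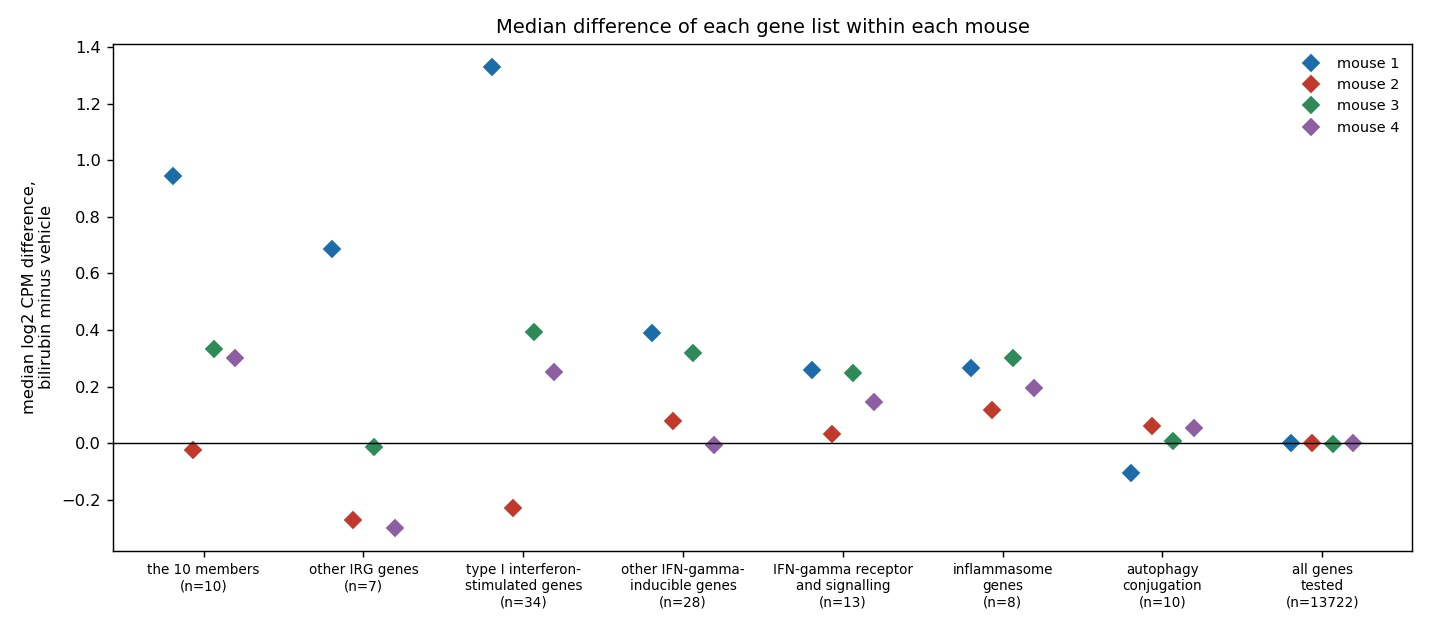
Median over each list of the log2 CPM difference between the bilirubin and vehicle cultures of each mouse (n = genes tested per list), with the autophagy list and all tested genes for comparison. Mouse 1 has the highest median in the members, the other IRG genes and the type I interferon-stimulated genes. It also has the highest median in the other IFNγ-inducible genes and, by little, in the IFNγ receptor and signalling genes.

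Type I interferon-stimulated genes varied between mice in the same order as the members for the highest and the lowest mouse. Of 34 tested, 2 rose and 0 fell, against 4.49% and 3.04% of all genes tested. The 2 were *Isg20* (log2 fold change 0.86, edgeR adjusted p = 0.0474) and *Epsti1* (0.66, adjusted p = 0.0489), while the list median was 0.45. At an unadjusted p under 0.05, 12 were higher and 0 lower (10.8% and 10% of all genes tested), and DESeq2 called 2 and limma voom 3, all higher. Mice 1 to 4 had median differences of 1.33, -0.23, 0.39 and 0.25, and 34, 4, 31 and 30 of the 34 genes were above 0. For comparison, the autophagy list had medians of -0.11, 0.06, 0.01 and 0.06.

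The genes whose log2 CPM over the 8 libraries was most like the mean of the members, of 10898 compared, were *Snx20* (Pearson 0.98), *Isg15* (0.98), *Irf7* (0.97), *Irf2bp2* (0.97), *Pml* (0.97), *Gvin2* (0.96), *Ifit2* (0.96) and *Slfn5* (0.96). Of these, *Irf2bp2* passed the threshold. The libraries share mice and treatments, and the correlations are descriptions.

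Macrophage identity and the other cell types were checked from marker lists. All 10 macrophage markers had at least 10 counts in a library, with a summed level of 24825 to 25151 CPM with vehicle and 29233 to 31339 CPM with bilirubin. Most of it was *Lyz2*, with a mean of 21757 CPM. Of the 10 markers 4 rose and 1 fell, against 4.49% and 3.04% of all genes tested. T and NK cell markers summed to 0.481 to 0.742 CPM with vehicle and 0.598 to 1.29 CPM with bilirubin, and 7 of the 14, including *Cd3g*, *Trac*, *Trbc2* and *Ncr1*, had 0 counts in all libraries. The summed level of neutrophil markers was 11.1 to 13.7 CPM with vehicle and 19.9 to 32.4 CPM with bilirubin. Most of this sum was *S100a8*, with a mean of 17.9 CPM over all libraries. Among the other neutrophil markers *Ngp* had the highest mean, 0.273 CPM, and *Retnlg* was at 0. The part of this sum in the values of the members was not tested. B cell markers, mainly *Ighm*, summed to 2.45 to 3.03 CPM with vehicle and 1.02 to 2.19 CPM with bilirubin. Dendritic cell markers, mainly *Zbtb46*, summed to 0.0235 to 0.159 CPM with vehicle and 0.194 to 0.622 CPM with bilirubin. The groups did not overlap in these marker sums, and their part in the values of the members was not tested. Erythroid markers reached 0.265 CPM, mast cell and basophil markers 0.168 CPM, and stromal and endothelial markers 3.54 to 9.60 CPM over all libraries. Libraries held 34142781 to 47071714 counts on genes, and mouse 1 had both the deepest vehicle and the shallowest bilirubin library.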

How the data were processed

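The authors trimmed reads with Trim Galore 0.6.7 and Cutadapt 3.4, aligned them with STAR 2.7.9a to GRCm39 and quantified transcripts with Salmon 1.10.1 (tools and build per the labels). The GRCm39 sequence is of another strain than the BALB/cJ mice. Gene-level values were deposited as Salmon estimated counts (also called expected counts), summed per gene without scaling for depth by the authors, and the authors deposited the estimated counts, effective length and TPM of each transcript per library. The sums of the transcript values per symbol and the gene-level values differed by at most 0.

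Differences were tested on the rounded counts with edgeR 4.0.16 in R 4.3.3 (TMM, filterByExpr with at least 10 counts and 15 in total, quasi-likelihood test, terms for mouse and treatment), with Benjamini-Hochberg adjustment over 13722 genes. Standard errors and 95% intervals were derived from the F statistic of each gene. CPM are TMM scaled, log2 CPM used a prior count of 2, and gene TPM is the sum over transcripts. On simulated counts for 13529 genes with 200 changed, 97% of the changed genes were recovered and 6.7% of calls were false. The simulation gave a gene the same treatment effect in every mouse and drew genes independently. The members differed by mouse and varied together, so these rates cannot tell how reliable their calls are. Pairing came from the labels, which give the mouse of each culture. The deviations of cultures of the same mouse from their group means correlated at 0.108, 0.134, 0.108 and -0.0053 in mice 1 to 4. The highest correlation with a culture of another mouse was 0.062, 0.016, 0.075 and 0.075. In mouse 4 the value for the same mouse was therefore the lower. Depth was 34142781 to 47071714 counts, and the limit drawn from 0 counts covers counting error only.

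The members and all gene lists were chosen with earlier results of these data known. All 10 members are named. From other lists the text names the genes past the threshold (at most 6 per list, by adjusted p), all tested GBP and IRG genes, further genes of the IFNγ pathway chosen whatever their result (1 of them and 1 promoter stretch are not reported here), and the 8 genes of mean log2 CPM of at least 1 most like the members. Alternatives were DESeq2 1.42.0, limma 3.58.1 (voom), other scalings and filters, an effective length offset, no replicate block, each mouse left out, and, added after seeing the data, pairs of related genes summed.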

Additional observations from a re-analysis of the deposited data

Results flagged for a closer look

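In 1 of the 20 groups of 4 libraries examined (10 members, each with vehicle and with bilirubin), a library stood far from the others. It was the bilirubin culture of mouse 2 for *Gbp2*, at 5.81 CPM against 8.88 to 9.44 CPM in the other bilirubin cultures. A group is flagged by chance in about 5% of cases under this rule.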

How the results depend on the processing

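The number of genes past the threshold was 1033, and it was 686 with no replicate block (the fit that ignores the pairing by mouse), 1692 with no filter, 579 with the effective length offset and 377 to 1910 when each mouse was left out. Scaling by library size alone changed the split of calls from 616 higher and 417 lower to 527 higher and 556 lower, with a median log2 fold change of all genes of -0.03. The number of members past the threshold was 4, and it was 7 with no filter, 1 with the effective length offset and 0 to 4 when each mouse was left out. The median log2 fold change of the members, 0.33, was 0.17 to 0.58 when each mouse was left out and was above 0 in all settings. Of other GBP and IRG genes, 1 passed, and 0 to 4 when each mouse was left out. *Iigp1* ranged from -0.46 (without mouse 1, reversed) to 0.69 when each mouse was left out. Of 126 single-gene values under alternatives, 109 kept their direction and side of the threshold, 13 no longer passed, 3 newly passed and 1 reversed. *Gbp3* no longer passed with library size alone (adjusted p = 0.0599) or a CPM above 1 in at least 4 libraries (0.0501). The cause of these changes was not tested. *Iigp1* did not pass the CPM filter. With no replicate block, *Gbp2*, *Gbp3*, *Gbp5* and *Gbp7* still passed.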
